A study of Mus musculus with 12 samples.

Results

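The 10 genes described here mark the endothelium, the cell layer that lines blood vessels, and were chosen by symbol (*Cdh5*, *Pecam1*, *Esam*, *Cldn5*, *Tek*, *Tie1*, *Emcn*, *Egfl7*, *Plvap* and *Gpihbp1*) from a table of 36186 genes measured in 12 libraries. All 10 had a row. The libraries came from chondrocytes cut by laser capture microdissection (LCM) out of 10 μm frozen sections of the forelimb zeugopod, the segment of the radius and ulna, of E15.5 mouse embryos on a mixed 129/CD-1 background. There were 3 libraries each of WT resting, WT proliferative and WT hypertrophic cartilage and of the *aadd* mutant, which is homozygous for first-exon frameshifts in *Hoxa9*, *Hoxa10*, *Hoxa11*, *Hoxd9*, *Hoxd10* and *Hoxd11*. The *aadd* zeugopod was captured whole as 1 chondrocyte population, although its label names the resting compartment, and the hypertrophic libraries are labelled hyperproliferative. The captured cells were mostly chondrocytes with some perichondrium, so no library was a preparation of endothelial cells. The sets were collected independently, but the labels tie no library to an animal, and P values measure the spread between these samples.

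Cartilage is avascular while it grows. When chondrocytes at the centre of a long bone become hypertrophic, vessels from the perichondrium enter the matrix together with osteoclasts and osteoblast precursors, and this front of vessels turns cartilage into bone. Endothelial cells are held together by junction proteins, respond to VEGF and angiopoietins through receptor tyrosine kinases, and carry proteins for exchange between blood and tissue on their surface.

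Values are NRPKM, RPKM (reads scaled by transcript length and by the size of the library) after normalization between libraries. 1 read in a transcript of 1 kb was worth 0.309 to 0.530 NRPKM in the 12 libraries, as read from 1711 genes with 1 exon, so a level below 1 NRPKM stood on a few reads. The targeted Hox genes were no check of the mutant labels because a frameshift does not remove the transcript: *Hoxa11* was at 5.17 to 11.1 NRPKM in *aadd* and 4.67 to 30.5 in WT, and *Hoxd11* at 25.1 to 35.4 in *aadd* and 0.275 to 7.31 in WT. Hypertrophic replicate 1 stood apart from replicates 2 and 3 and is given separately throughout. Cartilage matrix genes, 10 in number, summed to 3070 NRPKM in that library, to 747 and 1087 in hypertrophic replicates 2 and 3, and to between 2425 and 5171 in the 9 others. The 10 genes of hypertrophic chondrocytes summed to 1948 NRPKM in hypertrophic replicate 1, 3607 and 3949 in replicates 2 and 3, and at most 1017 in the other groups, and in replicate 1 9 of the 10 were above all resting and proliferative libraries. *Col10a1*, the collagen that defines hypertrophic chondrocytes, was at 264, 166 and 221 NRPKM, named after its values were seen. *Mmp13*, the collagenase of late hypertrophic cartilage and osteoblasts, was at 3.05, 735 and 661. *Spp1*, also named after its values were seen, was at 24.1, 1083 and 979. The lower sum in replicate 1 was thus not shared by all 10 genes. *Alpl*, *Ibsp*, *Sp7* and *Spp1* are also in the osteoblast list given below. The labels do not say whether replicate 1 was captured differently.

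Promoter sequences were printed for members because the 10 genes moved together across the libraries. Of the 10 members, 5 had an entry in the RefSeq promoter table (GRCm38.p6), with 7 start sites in all. The 250 bases before a start site are given 5′ to 3′ on the strand of the gene. Capitals mark AGGAAG or its reverse complement CTTCCT, a core that ETS factors such as Erg and Fli1 can bind, and AACAAT or ATTGTT, a core for SOX factors. Each motif was searched on both strands, and no printed AGGAAG match overlapped an AACAAT match.
*Cldn5* (chr16:18776597-18776846, plus strand): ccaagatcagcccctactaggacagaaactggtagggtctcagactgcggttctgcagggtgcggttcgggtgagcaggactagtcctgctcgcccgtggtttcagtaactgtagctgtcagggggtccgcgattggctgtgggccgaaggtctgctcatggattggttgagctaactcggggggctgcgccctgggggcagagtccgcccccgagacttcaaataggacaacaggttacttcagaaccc
*Tek* (chr4:94739039-94739288, plus strand): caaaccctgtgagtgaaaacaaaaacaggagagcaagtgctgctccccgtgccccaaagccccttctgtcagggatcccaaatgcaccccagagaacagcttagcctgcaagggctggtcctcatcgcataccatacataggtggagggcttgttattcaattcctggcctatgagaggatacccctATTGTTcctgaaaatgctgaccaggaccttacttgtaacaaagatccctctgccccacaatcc
*Tie1* (chr4:118489850-118490099, minus strand): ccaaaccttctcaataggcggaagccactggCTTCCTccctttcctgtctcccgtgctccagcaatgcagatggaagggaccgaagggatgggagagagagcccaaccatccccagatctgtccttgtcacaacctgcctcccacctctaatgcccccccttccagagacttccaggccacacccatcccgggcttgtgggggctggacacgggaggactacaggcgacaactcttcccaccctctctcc
*Emcn* (chr3:137340828-137341077, plus strand): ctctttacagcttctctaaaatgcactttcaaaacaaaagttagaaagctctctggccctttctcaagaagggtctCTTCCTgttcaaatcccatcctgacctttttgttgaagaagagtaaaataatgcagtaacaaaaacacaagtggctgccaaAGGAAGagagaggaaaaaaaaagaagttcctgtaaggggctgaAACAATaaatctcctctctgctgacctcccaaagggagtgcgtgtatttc
*Egfl7* (chr2:26580833-26581082, plus strand): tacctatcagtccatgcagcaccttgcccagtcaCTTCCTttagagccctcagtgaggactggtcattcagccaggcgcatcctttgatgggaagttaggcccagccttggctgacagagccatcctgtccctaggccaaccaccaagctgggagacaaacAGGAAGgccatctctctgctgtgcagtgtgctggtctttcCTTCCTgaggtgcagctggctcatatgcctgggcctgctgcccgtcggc
Of these 5 stretches, *Cldn5* held neither motif. *Tek* held the SOX motif at 63 bases before the start. *Tie1* held the ETS motif at 219 bases before the start. *Emcn* held the ETS motif at 174 and 93 bases and the SOX motif at 50 bases before the start. The *Egfl7* start shown held the ETS motif at 216, 89 and 49 bases, the most matches of its start sites. Of those not printed, the start at 26583865 held the ETS motif at 80 bases and the start at 26586636 held neither motif. Among 32851 promoters of the same length, 29.5% held the ETS motif and 9.4% the SOX motif. Over the 7 start sites of members, among which *Egfl7* counts more than once, 4 held the ETS motif and 2 the SOX motif. A match is a description of the letters, not a binding site.

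*Egfl7* also carries the endothelial microRNA miR-126 in an intron, on chromosome 2 at 26591357 to 26591429. The mature strand is shown because its host gene is a member. Its seed, bases 2 to 8, is in capitals.
mmu-miR-126a-3p (chr2:26591402-26591423, plus strand): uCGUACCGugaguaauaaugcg
The *Mir126* row was at 4.29 NRPKM in WT resting replicate 3, 3.87 in hypertrophic replicate 1 and 2.71 in hypertrophic replicate 2, and listed at 0 in the other 9 libraries. Each of these values lay below the worth of a whole read in a row this short, so they cannot be compared with those of *Egfl7*. They were read from a total RNA library and not from a small RNA library.

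The same picture held for every member. Hypertrophic replicate 2 was the highest of the 12 libraries and hypertrophic replicate 3 the second highest for 10 of 10 genes, where 11.6% of all genes with a value had replicates 2 and 3 above the other 10 libraries. The members summed to 305 NRPKM in hypertrophic replicate 2, 200.2 in replicate 3 and 24.7 in replicate 1. They summed to 7.89, 5.86 and 13.4 in WT proliferative, 4.61, 12.2 and 10.1 in WT resting and 8.80, 40.1 and 5.17 in *aadd* replicates 1, 2 and 3. Replicates 2 and 3 differed from each other by 1.52-fold and from replicate 1 by 12.4-fold and 8.11-fold. Replicate 1 was at 2.73 times the proliferative mean. It lay above all 6 resting and proliferative libraries for 5 of 10 members, against 19.3% of all genes.

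**Figure D1:**
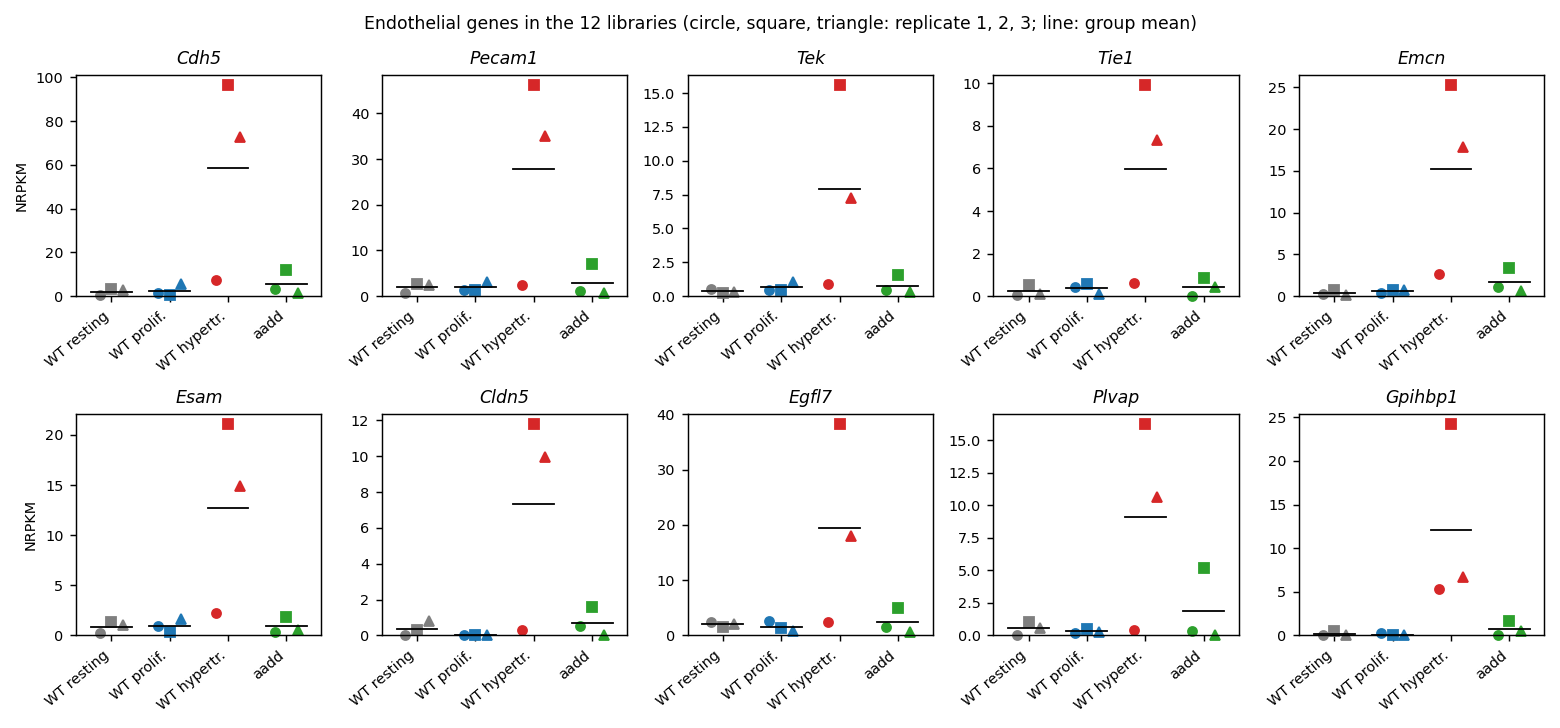
NRPKM of the 10 endothelial genes in the 12 libraries on linear axes from 0, with 1 panel per gene, groups along the x axis, replicates 1, 2 and 3 as circle, square and triangle, and a line at each group mean. In every panel hypertrophic replicates 2 and 3 are the highest libraries and hypertrophic replicate 1 lies below both, and the square of *aadd* replicate 2 is the highest of its group.

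Junction and adhesion genes included the pair with the highest levels, *Cdh5* and *Pecam1*. *Cdh5*, which encodes VE-cadherin, the cadherin of endothelial adherens junctions (chr8:104101625-104144502), was at 7.30, 96.5 and 72.5 NRPKM in hypertrophic replicates 1, 2 and 3. It was at 1.27, 0.580 and 5.69 in WT proliferative, 0.340, 3.16 and 2.65 in WT resting and 3.39, 12.02 and 1.33 in *aadd*. All hypertrophic libraries lay above all proliferative and resting libraries, but *aadd* replicate 2 lay above hypertrophic replicate 1. *Pecam1*, the immunoglobulin superfamily adhesion molecule CD31 (chr11:106654218-106715281), was at 2.41, 46.2 and 35.01 NRPKM in hypertrophic, 1.38, 1.41 and 3.11 in proliferative, 0.765, 2.75 and 2.40 in resting and 1.09, 6.97 and 0.735 in *aadd*. Hypertrophic replicate 1 was inside the range of the proliferative and resting libraries for this gene.

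*Esam*, an adhesion molecule of tight junctions between endothelial cells (chr9:37528089-37538319), was at 2.27, 21.1 and 14.9 NRPKM in hypertrophic, 0.979, 0.336 and 1.66 in proliferative, 0.232, 1.36 and 1.05 in resting and 0.385, 1.89 and 0.562 in *aadd*. The hypertrophic libraries were above all 9 others. *Cldn5*, a claudin that seals the tight junctions of endothelium (chr16:18776847-18778262, 1 exon), was at 0.302, 11.8 and 9.96 NRPKM in hypertrophic, 0 in all proliferative libraries, 0, 0.294 and 0.829 in resting and 0.507, 1.61 and 0 in *aadd*. Because *Cldn5* has a single exon its reads could be counted: 1, 54 and 42 in hypertrophic, 0, 0 and 0 in proliferative, 0, 1 and 3 in resting and 2, 5 and 0 in *aadd*. *Cldn5* in hypertrophic replicate 1 was thus 1 read, which cannot be told from the resting libraries.

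Of the receptors, *Tek*, which encodes the angiopoietin receptor TIE2 (chr4:94739300-94874939), was at 0.920, 15.6 and 7.23 NRPKM in hypertrophic, 0.492, 0.449 and 1.04 in proliferative, 0.511, 0.268 and 0.308 in resting and 0.441, 1.59 and 0.294 in *aadd*. Hypertrophic replicate 1 was below proliferative replicate 3. *Tie1*, the related receptor that pairs with TIE2 (chr4:118471191-118489849), was at 0.631, 9.92 and 7.36 NRPKM in hypertrophic, 0.450, 0.589 and 0.125 in proliferative, 0.0670, 0.520 and 0.0921 in resting and 0, 0.849 and 0.451 in *aadd*. Hypertrophic replicate 1 stood on an estimated 6.0 reads, against at most 4.8 in a proliferative library and 5.1 in a resting library.

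*Emcn*, a sialomucin of capillary and venous endothelium (chr3:137341078-137431069), was at 2.66, 25.3 and 17.9 NRPKM in hypertrophic, 0.328, 0.689 and 0.742 in proliferative, 0.316, 0.731 and 0.0913 in resting and 1.09, 3.39 and 0.653 in *aadd*. Hypertrophic replicate 1 was above all 6 proliferative and resting libraries. *Egfl7*, a secreted protein of the endothelial matrix (chr2:26581056-26592682), was at 2.37, 38.2 and 18.0 NRPKM in hypertrophic, 2.53, 1.29 and 0.730 in proliferative, 2.38, 1.55 and 2.14 in resting and 1.55, 4.89 and 0.675 in *aadd*. For *Egfl7* hypertrophic replicate 1 was below the highest library of both other WT groups.

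Genes for exchange across the capillary wall closed the list. *Plvap*, a component of the diaphragms of fenestrae and caveolae (chr8:71497753-71511769), was at 0.425, 16.2 and 10.7 NRPKM in hypertrophic, 0.189, 0.519 and 0.263 in proliferative, 0, 1.05 and 0.582 in resting and 0.356, 5.19 and 0 in *aadd*. *Plvap* overlaps the end of *Gtpbp3*, which was at 4.78 to 8.58 NRPKM in all libraries and did not follow it. *Gpihbp1*, which holds lipoprotein lipase on the luminal face of capillaries (chr15:75596658-75598213), was at 5.37, 24.2 and 6.74 NRPKM in hypertrophic, 0.268, 0 and 0 in proliferative, 0, 0.523 and 0 in resting and 0, 1.71 and 0.473 in *aadd*. *Gpihbp1* was the only member for which hypertrophic replicates 1 and 3 were close, with an estimated 10.4 and 16.6 reads.

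Shares of the members' sum were read from levels per length. *Cdh5* was the highest in hypertrophic replicates 1, 2 and 3, with 29.6%, 31.6% and 36.2% of the members' sum, and in *aadd* replicate 2 with 30.0%. *Pecam1* took 9.78%, 15.2% and 17.5% in the same hypertrophic libraries. *Gpihbp1* took 21.8% of the sum in hypertrophic replicate 1 against 7.93% and 3.37% in replicates 2 and 3. *Plvap* took 12.9% in *aadd* replicate 2 against 5.32% in hypertrophic replicates 2 and 3, and *Egfl7* led in resting replicate 1 with 51.6% and in proliferative replicate 1 with 32.1%. These shares are descriptions of libraries, and in the low libraries a few reads set them.

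WT hypertrophic was compared with WT proliferative by limma on log2(NRPKM + 0.1), and a gene was called at an unadjusted P value of at most 0.05 and an FC of at least 2. Fitted over all 23070 genes with a value in any library, the 10 members were 2.77 to 5.97 log2 units higher in hypertrophic, with a median of 3.38 against -0.02 over all genes. Of the 10, 7 rose by the criteria, against 4.41% of all genes, and after Benjamini-Hochberg adjustment over all genes none of the 10 was below 0.05, against 0.195% of all genes in either direction. *Pecam1*, *Tek* and *Plvap* missed the criteria, at limma adjusted P values of 0.403, 0.395 and 0.404 (for *Tek* 0.0486 to 0.711 over the alternatives). Hypertrophic and proliferative libraries did not overlap for 6 of the 10 members, against 9.25% of all genes: *Cdh5*, *Tie1*, *Emcn*, *Esam*, *Cldn5* and *Gpihbp1*. In bulk samples, fewer cells of a type and less RNA per cell cannot be told apart.

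The study's filter of 5 NRPKM in at least 3 libraries left 10936 genes and 4 members, *Cdh5*, *Pecam1*, *Plvap* and *Gpihbp1*. *Tek*, *Tie1*, *Emcn*, *Esam*, *Cldn5* and *Egfl7* reached 5 NRPKM only in hypertrophic replicates 2 and 3. The 4 entered by way of the libraries in which they were high, so that their number past the criteria, 4, beside 5.32% of the filtered genes, says nothing about the members. For the same reason the differences and adjusted P values of the 4 in this fit are given as values only. *Gpihbp1*, which reached 5 NRPKM only in the 3 hypertrophic libraries, was 5.97 ± 0.75 (SE) log2 units higher in hypertrophic. Its limma adjusted P was 0.082 (0.0111 to 0.325 over the alternatives). *Cdh5* was 4.41 ± 1.20 log2 units higher with a limma adjusted P of 0.170 (0.0193 to 0.510). *Pecam1* and *Plvap* were 3.05 ± 1.12 and 3.49 ± 1.29 log2 units higher, and both had an adjusted P of 0.232 by limma (alternatives 0.00646 to 0.556 and 0.00505 to 0.556).

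On the log2 scale the spread in the hypertrophic group was mostly that between replicate 1 and the others. *Gpihbp1* was the exception, at 5.37, 24.2 and 6.74 NRPKM, with replicate 2 above replicates 1 and 3. Without replicate 1, and with no filter, all 10 members met the criteria, against 8.08% of all genes, and 6 of 10 had a limma adjusted P below 0.05, against 4.97% of genes in either direction. *Cldn5*, with no spread in the proliferative libraries listed at 0, had a difference of 6.77 ± 0.12 log2 units. *Emcn* rose by 5.02 ± 0.40 log2 units, *Pecam1* by 4.39 ± 0.45 and *Tek* by 3.90 ± 0.54 in that fit. Without hypertrophic replicate 2 or 3 instead, 3 and 2 of the 10 members met the criteria. Leaving out proliferative replicate 1, 2 or 3 left 3, 3 and 5 of the 10.

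Folds of the rarest members are lower bounds. *Cldn5*, *Plvap* and *Gpihbp1* had at most 3 reads in every proliferative library, exactly for *Cldn5* and estimated from transcript length for the others. Set against 3 reads per library, the hypertrophic mean was at least 7.25-fold higher for *Cldn5*, 12.61-fold for *Plvap* and 6.96-fold for *Gpihbp1*. With replicates 2 and 3 alone the bounds were at least 10.7-fold, 18.6-fold and 8.90-fold. Without replicate 2 they were at least 5.07-fold, 7.68-fold and 3.48-fold, and without replicate 3 at least 5.96-fold, 11.5-fold and 8.504-fold. Their fitted log2 differences depend on the pseudocount.

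**Figure D2:**
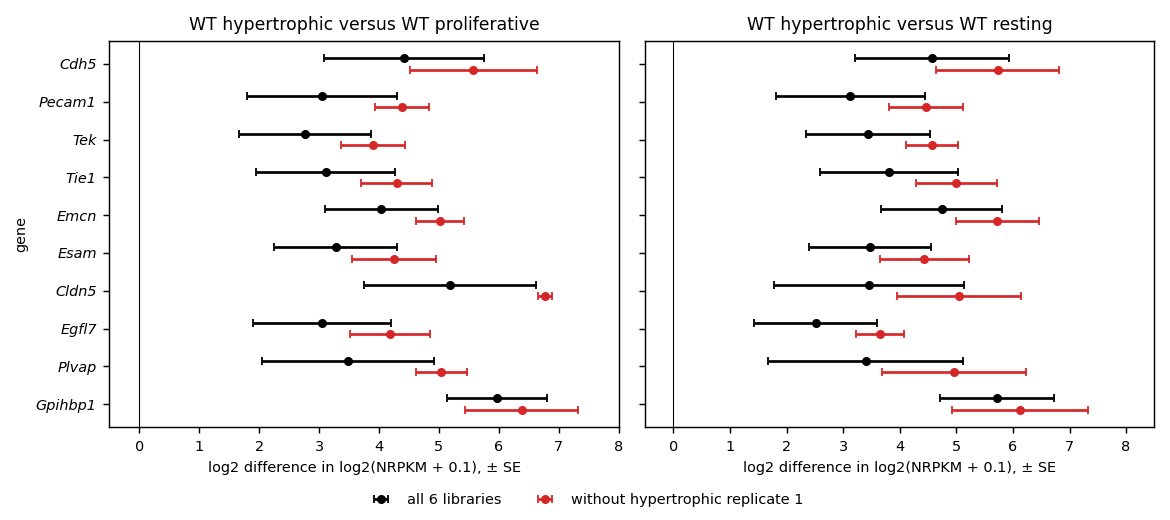
Log2 difference of each member with its SE from limma on log2(NRPKM + 0.1) over all 23070 genes, for hypertrophic against proliferative (left) and against resting (right), with all 6 libraries (black) and without hypertrophic replicate 1 (red). All 10 points are above 0 in both panels, and without replicate 1 each point is farther from 0, as for *Emcn* at 4.04 and 5.02 on the left.

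WT hypertrophic was next compared with WT resting, a comparison that shares its hypertrophic libraries with the one above. Without the filter the members were 2.52 to 5.72 log2 units higher in hypertrophic, with a median of 3.46 against 0.00 over all genes. *Cdh5*, *Tek*, *Tie1*, *Emcn*, *Esam* and *Gpihbp1*, 6 of the 10, rose by the criteria, against 5.95% of all genes, and none of the 10 had a limma adjusted P below 0.05, against 1.32% of genes in either direction. The same 6 had hypertrophic libraries above all resting libraries, against 10.9% of all genes. *Pecam1*, *Cldn5*, *Egfl7* and *Plvap* were 3.13, 3.45, 2.52 and 3.40 log2 units higher with P values of 0.066, 0.097, 0.071 and 0.108 by limma. *Gpihbp1* reached 5 NRPKM only in the 3 hypertrophic libraries and so entered the filtered fit through the group in which it was high. Its difference of 5.72 ± 0.89 log2 units there, at a limma adjusted P of 0.021, is given as a value only (0.00702 to 0.0901 over the alternatives, and 0.082 without the filter). In the filtered fit 5.84% of filtered genes rose by the criteria and 6.36% had an adjusted P below 0.05 in either direction.

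Without hypertrophic replicate 1 all 10 members met the criteria against resting, beside 9.0% of all genes, and 5 of 10 had a limma adjusted P below 0.05, beside 10.0% of genes in either direction. *Emcn* rose by 5.72 ± 0.74 log2 units and *Egfl7* by 3.65 ± 0.42 in that fit. Leaving out hypertrophic replicate 2 or 3, or resting replicate 1, left 2 of the 10, and leaving out resting replicate 3 left 3. *Cldn5* and *Gpihbp1* had at most 3 reads in every resting library, and the hypertrophic mean was at least 9.08-fold and 8.71-fold higher than 3 reads per library would give, and at least 6.34-fold and 4.36-fold without replicate 2.

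Between WT proliferative and WT resting no member met the criteria, where 4.07% of all genes were higher and 2.41% lower in proliferative. The differences ran from -1.73 log2 units for *Cldn5* to 0.70 for *Emcn*. The smallest of the 10 unadjusted limma P values was 0.097, so none was under 0.05 before adjustment either, and 0.221% of all genes were under 0.05 after it. With the filter 0 of 4 members met the criteria, beside 2.56% of genes higher and 2.97% lower. Groups overlapped for all 10 members, against 8.7% of genes wholly higher and 8.9% wholly lower. The groups held few reads of these genes, with 0 to 3 reads of *Cldn5* in each of the 6 libraries. Resting replicate 1 was the lowest resting library for 7 of the 10, for *Gpihbp1* tied with replicate 3 at 0. Without resting replicate 1, *Cldn5* passed the criteria at a difference of -2.60 ± 0.42 log2 units (limma adjusted P = 0.204, 0.204 to 0.680 over the alternatives). That difference stood on 1 and 3 reads against 0, 0 and 0, which is too few to show a change.

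The *aadd* mutant was compared with WT resting, the compartment its label names, and an FC of at least 1.5 was asked for. None of the 10 members met them, where 3.58% of all genes were higher and 1.92% lower in *aadd*, and none had an unadjusted limma P under 0.05, while 0.152% of all genes were under 0.05 after adjustment. With the filter 0 of 4 met the criteria, beside 3.78% of genes higher and 2.78% lower. The *aadd* and resting libraries overlapped for all 10 members, beside 6.54% of genes wholly higher and 4.89% wholly lower. *Emcn* had the smallest, at 0.074, with a difference of 1.85 ± 0.82 log2 units, and the other differences ran from -0.17 for *Egfl7* to 1.35 for *Gpihbp1*. The *aadd* libraries differed among themselves. Replicate 2 was the highest *aadd* library for 10 of 10 members, against 37.2% of all genes, and lay above all 6 WT resting and proliferative libraries for 10 of 10, against 18.0%.

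In *aadd* replicate 2 the members summed to 5.74 times the mean of replicates 1 and 3. It was the third highest of the 12 libraries for 8 members, behind hypertrophic replicates 2 and 3, and hypertrophic replicate 1 took that place for *Esam* and *Gpihbp1*. *Cdh5* had an estimated 105.6 reads there, *Plvap* 22.7 and *Pecam1* 52.8, against at most 37.7, 2.0 and 10.4 in the other *aadd* libraries. The macrophage list described next summed to 46.7 NRPKM in *aadd* replicate 2 and to 18.3 and 16.2 in replicates 1 and 3. The skeletal muscle list summed to 37.4 in *aadd* replicate 2 and 23.0 and 8.53 in the others. Its highest sum of the 12 libraries was in WT proliferative replicate 3, at 81.3. In *aadd* replicate 2, 2 of 10 muscle genes lay above all 6 WT resting and proliferative libraries, against 18.0% of all genes. The same held for 5 of 10 macrophage, 6 of 10 mural and 0 of 10 osteoclast genes of the lists below. It also held for 21 of the 40 other endothelial genes. The part of these lists in the result was not tested.

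Across the 4 groups the limma F test at an unadjusted P value under 0.05, with a largest FC of at least 5, called 8 of the 10 members without the filter, where 7.08% of all genes were called. *Pecam1* and *Plvap* were not called, at limma adjusted P values of 0.269 and 0.462 (0.00938 to 0.438 and 0.0702 to 0.656 over the alternatives with the filter). *Gpihbp1* and *Emcn* had limma adjusted P values of 0.042 and 0.049 in this fit, beside 3.93% of genes below 0.05 (for *Emcn* 0.00788 to 0.195 over the alternatives). With the filter 3 of 4 members were called, beside 5.6% of genes, a count that says nothing about the members because the 4 entered through libraries in which they were high. With hypertrophic replicate 1 left out the test called 10 of 10, and with replicate 2 or 3 left out 2 of 10.

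**Figure D3:**
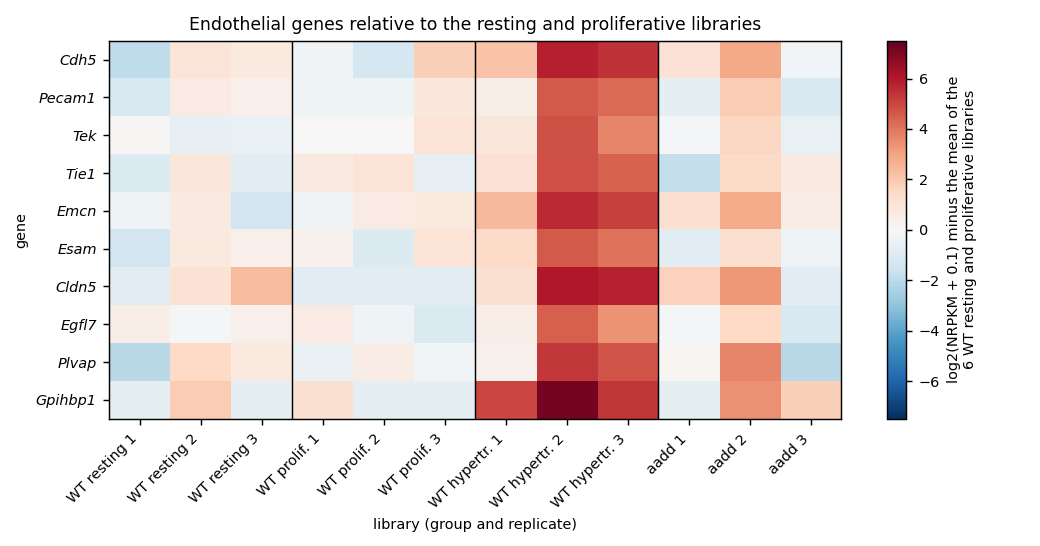
Log2(NRPKM + 0.1) of each member in each library minus its mean over the 6 WT resting and proliferative libraries, as colour from blue (lower) to red (higher), with rows for genes, columns for libraries and lines between groups. Hypertrophic replicates 2 and 3 are red for all 10 genes, from 3.38 to 7.17, and *aadd* replicate 2 is above 0 for all 10, from 1.18 to 3.67.

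Other endothelial genes were followed through 3 lists of 40 genes: 13 transcription factors, 12 receptors and signalling genes, and 15 surface and cytoplasmic genes. Hypertrophic replicates 2 and 3 were above the other 10 libraries for 32 of the 40. Against proliferative, 18 of the 40 rose and 0 fell, beside 4.41% and 3.95% of all genes, with 5 of 13 transcription factors, 5 of 12 receptors and 8 of 15 surface genes. Against resting, 20 of the 40 rose and 0 fell, beside 5.95% and 5.05% of all genes. In proliferative against resting 4 rose and 3 fell, and in *aadd* against resting 1 rose and 0 fell. These counts are without the filter, by the same criteria as for the members, and stand beside the shares of all genes given above.

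The 4 surface genes with the highest levels differed in pattern. *Cd93*, a C-type lectin-like receptor of endothelium, was at 8.91, 57.5 and 48.0 NRPKM in hypertrophic and at 2.71 to 11.4 in the other libraries, the highest of these being *aadd* replicate 2. *Cd34*, a sialomucin of vessels and progenitors, was at 10.6, 36.8 and 33.9 in hypertrophic and 0 to 8.13 elsewhere. *Clec14a*, a lectin-like endothelial receptor, was at 3.04, 11.4 and 11.98 in hypertrophic and 2.19 to 6.81 elsewhere. *Mcam*, the adhesion molecule CD146, was at 10.9, 59.7 and 45.4 in hypertrophic, but 23.8 to 28.8 in resting, 2.87 to 15.8 in proliferative and 30.2 to 41.1 in *aadd*. *Mcam* fell between resting and proliferative, by 1.81 on the log2 scale (limma adjusted P = 0.379 without the filter, 0.215 with it).

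The receptors with the highest levels were also read outside the high pair of libraries. *Eng*, a co-receptor for TGF-beta ligands, was at 4.06, 36.4 and 27.7 NRPKM in hypertrophic, 10.4 to 22.7 in resting, 3.96 to 11.9 in proliferative and 13.2 to 24.5 in *aadd*, so that hypertrophic replicate 1 was below all resting libraries. *Nrp1*, a co-receptor for VEGF, was at 7.94, 29.0 and 25.6 in hypertrophic and rose from 1.49 to 2.44 in resting to 9.78 to 12.9 in proliferative, a difference of 2.49 ± 0.24 log2 units (limma adjusted P = 0.057 without the filter, 0.0145 with it). *S1pr1*, the sphingosine-1-phosphate receptor, was at 8.64, 34.3 and 32.9 in hypertrophic, 4.83 to 9.96 in proliferative and 0.687 to 4.26 in resting. *Notch1* was at 5.28, 22.4 and 20.4 in hypertrophic and 4.69 to 11.6 elsewhere.

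The 4 endothelial transcription factors with the highest levels, *Erg* and *Fli1* of the ETS family and the Krüppel-like *Klf2* and *Klf4*, did not have the order of libraries seen for the members. Over the whole list, 7 of 13 had hypertrophic replicates 2 and 3 above the other 10 libraries, among them *Ets1*, at 8.87, 39.1 and 28.0 NRPKM in hypertrophic and 4.43 to 7.32 elsewhere. *Ets1* was named after its values were seen. *Erg* was at 28.6, 18.7 and 22.1 NRPKM in hypertrophic, 28.5 to 39.9 in resting, 8.66 to 24.1 in proliferative and 33.8 to 41.8 in *aadd*. The study counts *Erg* among joint markers, and the share of its level that came from endothelium was not tested. *Fli1* was at 15.6, 23.3 and 25.6 in hypertrophic, 23.5 to 37.4 in resting, 8.04 to 16.6 in proliferative and 19.4 to 35.6 in *aadd*. Both fell between resting and proliferative, *Erg* by 1.26 and *Fli1* by 1.36 on the log2 scale (limma adjusted P = 0.354 and 0.285 without the filter, 0.198 and 0.139 with it). *Klf2* and *Klf4* were highest in hypertrophic replicate 1, at 26.3 and 52.2 NRPKM, and at 4.03 to 25.8 and 17.8 to 40.2 in the other libraries.

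Genes for uptake of blood lipid at the capillary wall were set beside *Gpihbp1*. Without the filter 5 of 5 rose in hypertrophic against proliferative and against resting, beside 4.41% and 5.95% of all genes. *Lpl*, the lipase that *Gpihbp1* binds, was at 9.30, 43.2 and 30.1 NRPKM in hypertrophic and at 3.01 to 6.59 in the other 9 libraries, with a difference from proliferative of 2.08 ± 0.62 log2 units. *Fabp4*, a fatty acid binding protein of capillaries and adipocytes, was at 4.01, 38.9 and 30.1 in hypertrophic and 0 to 7.09 elsewhere, the highest being *aadd* replicate 2. *Cd36*, a fatty acid transporter, was at 1.14, 6.85 and 1.62 in hypertrophic and 0 to 1.39 elsewhere. *Fabp5* was at 42.5, 85.9 and 70.3 in hypertrophic and 20.8 to 37.9 elsewhere. *Lipg*, endothelial lipase, went the other way within hypertrophic, at 3.63 NRPKM in replicate 1 and 1.16 and 1.47 in replicates 2 and 3, and at 0 in all resting libraries.

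Among 11 ligands that act on vessels, 7 rose against proliferative and 6 against resting without the filter, beside 4.41% and 5.95% of all genes. With the filter 6 of the ligands entered, and 2 and 3 of them rose. *Pdgfb*, which recruits mural cells, was at 0.773, 13.7 and 14.7 NRPKM in hypertrophic and 0 to 0.706 elsewhere. *Apln* was at 2.86, 18.0 and 12.3 and at 0 to 1.94 elsewhere, *Dll4* at 1.61, 7.84 and 5.74 and at 0 to 0.741 elsewhere, and *Esm1* at 2.65, 8.81 and 15.3 and at 0.094 to 3.61 elsewhere. Apelin, the Notch ligand DLL4, endocan and PDGF-B are made by the growing tips and stalks of vessels. *Cxcl12*, a chemokine of stroma and vessels, was at 11.9, 23.8 and 19.96 in hypertrophic, 1.39 to 4.97 in proliferative, 1.65 to 2.495 in resting and 8.03 to 9.87 in *aadd*. *Cxcl12* was 1.99 ± 0.20 log2 units higher in *aadd* than in resting (limma adjusted P = 0.094 without the filter, 0.0399 with it).

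The ligands of VEGF receptors were not all higher in hypertrophic. *Vegfa* was at 18.0, 33.8 and 48.1 NRPKM in hypertrophic, 28.1 to 57.6 in resting, 19.7 to 22.5 in proliferative and 22.2 to 26.5 in *aadd*, and *Vegfb* at 23.4, 23.8 and 14.9 against 26.6 to 38.4 in resting. *Vegfc* was at 2.28, 14.1 and 10.3 in hypertrophic and 0.167 to 4.75 elsewhere. *Pgf* was at 0.546, 21.1 and 26.3 in hypertrophic and 0 to 0.748 elsewhere except proliferative replicate 3, at 5.12. The angiopoietins parted: *Angpt1*, the activating ligand of TIE2, was highest in hypertrophic replicate 1, at 16.1, 11.0 and 13.8 NRPKM against 0.270 to 4.69 elsewhere. *Angpt2* was at 4.51, 14.7 and 10.5 in hypertrophic and 7.86 to 15.1 elsewhere.

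In hypertrophic replicates 2 and 3 osteoclast markers were high with the members, and macrophage markers were so in part. The 10 osteoclast genes summed to 51.5, 1351 and 995 NRPKM in hypertrophic replicates 1, 2 and 3, and to 9.76 to 36.7 in the 9 others, and all 10 had replicates 2 and 3 above the other 10 libraries. *Mmp9*, the gelatinase of osteoclasts, was at 10.3, 422 and 378 NRPKM in hypertrophic and *Acp5*, the osteoclast acid phosphatase, at 2.92, 246 and 199.96. The 10 macrophage genes summed to 27.3, 287 and 231 in hypertrophic, against 16.2 to 46.7 elsewhere, and 0 to 1 of the 10 were at 0 in replicates 2 and 3. Only 3 of the 10 had replicates 2 and 3 above the other 10 libraries. Without the filter 1 of the 10 macrophage genes rose against proliferative and 4 against resting. Of the 10 osteoclast genes 4 and 6 did, and of all genes 4.41% and 5.95%. In *aadd* replicate 2, 5 of 10 macrophage and 0 of 10 osteoclast genes lay above all 6 WT resting and proliferative libraries. The share of all genes there was 18.0%. *Cd68* was at 18.2, 174 and 160.4 and *Csf1r* at 2.08, 56.7 and 49.6 NRPKM, while *Cd163* was at 2.15 to 3.65 in all 12 libraries. *Mrc1* and *C1qb*, named after their values were seen, were highest in *aadd* replicate 2, at 6.71 and 10.6 NRPKM. The part of these cells in the members' values was not tested.

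Other lists gave further ranges. Osteoblast genes, 10 in number, summed to 1629, 3370.5 and 4343 NRPKM in hypertrophic and 128 to 1152 elsewhere. Mural cell genes summed to 83.2, 188 and 176 in hypertrophic and 81.2 to 149 elsewhere, with *Pdgfrb* at 6.91, 63.9 and 54.4 in hypertrophic. *Cspg4* was at 57.4, 28.4 and 34.9 in hypertrophic and at 57.2 to 111 elsewhere, a large part of the sum. Hypertrophic replicates 2 and 3 were above the other 10 libraries for 5 of the 10 mural genes, against 11.6% of all genes. The 3 lymphatic genes summed to 4.43, 11.6 and 14.6 in hypertrophic and 3.06 to 15.2 elsewhere, and *Lyve1* and *Prox1*, which define lymphatic vessels, were at 0 to 3.84 NRPKM in all libraries. Erythroid genes summed to 162, 222 and 219 in hypertrophic, where replicate 1 was close to the others, and to 29.3 to 166 elsewhere, with proliferative replicate 1 the highest of those. Their part in the result was not tested.

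**Figure D4:**
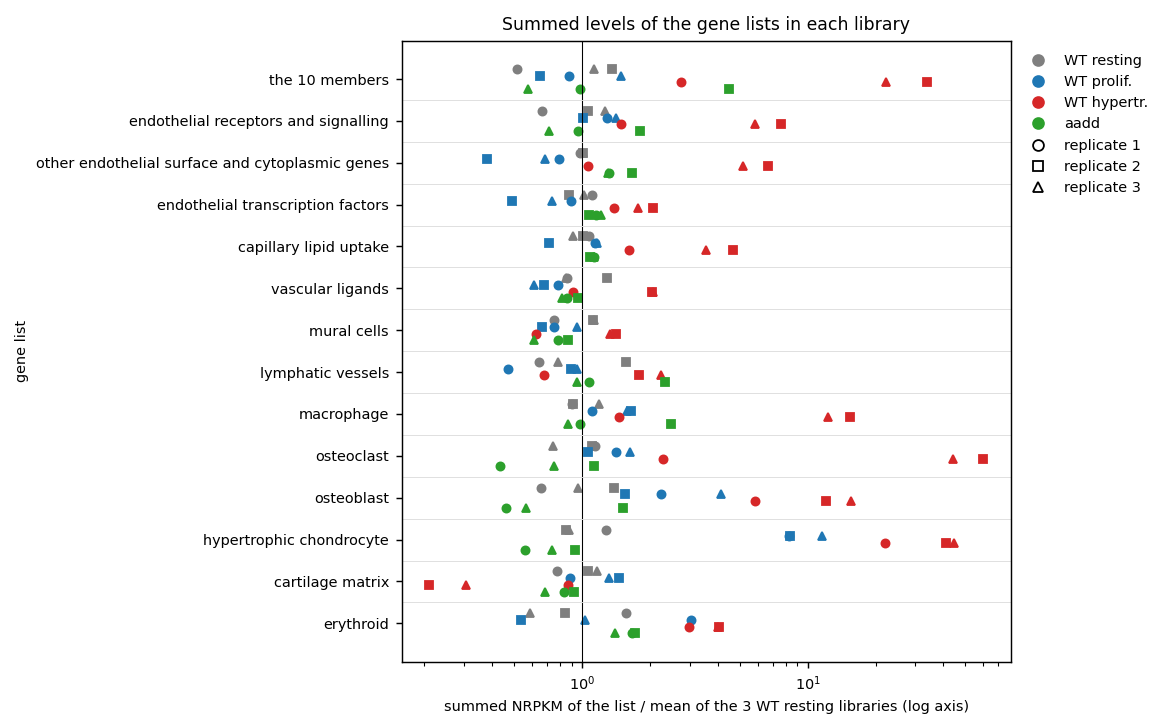
Summed NRPKM of each gene list except skeletal muscle in each library, divided by the mean of the 3 WT resting libraries, on a log axis. There is 1 row per list, with colours for groups and circle, square and triangle for replicates 1, 2 and 3. Hypertrophic replicates 2 and 3 are far right for the members (33.9 and 22.3), osteoclast (59.9 and 44.1) and macrophage lists (15.3 and 12.3) and left for cartilage matrix (0.211 and 0.306), while replicate 1 is at 2.75, 2.28, 1.45 and 0.865.

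The genes most like the members over the 12 libraries were sought by Pearson's r between log2(NRPKM + 0.1) and the mean of the members' standardised log2 values. Among the 10932 other genes that passed the filter, *Cd93* had the highest r, at 0.98, followed by *Cd97* at 0.97 and *Rasgrp3* at 0.97. *Gng11*, *Sox4*, *Spry4*, *Fryl*, *Mmp14*, *Cap1* and *Midn* followed, at 0.96 to 0.95. The 12 libraries fall into separate sets and 2 of them carry most of the range, so that r is a description. *Rasgrp3* was at 6.41, 34.5 and 30.4 NRPKM in hypertrophic and 2.77 to 7.73 elsewhere, and *Mmp14*, a membrane metalloproteinase, at 62.1, 197 and 189 against 44.0 to 82.6. The members themselves had r from 0.89 for *Gpihbp1* to 0.97 for *Pecam1* with the mean that includes them.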

How the data were processed

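RNA from LCM chondrocytes was amplified with the NuGEN Ovation V2 system, tagmented with Nextera and made into Illumina libraries. The authors aligned reads to mm10 (TopHat is named in the submitters' processing notes), removed duplicate reads and reads with more than 1 position, and deposited RPKM values normalized between libraries (NRPKM) from GeneSpring, in 1 table. No read counts were used here.

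Log2(NRPKM + 0.1) was fitted with limma 3.58.1 in R 4.3.3, by moderated tests on the 6 libraries of each pair of groups and a moderated F test over 12, with Benjamini-Hochberg adjustment over all genes tested. Fits with all 10 members used all 23070 genes with a value above 0 in any library. Filtered fits used the 10936 genes passing the study's filter (5 NRPKM or more, 3 libraries or more), with 4 members. Fold changes are on that scale and understate the change of low genes. The script was tested on simulated data. Reads were recovered from the smallest steps of genes with 1 exon. Gene positions are those deposited with the values. Strands, exon numbers and transcript lengths are from GENCODE M21 (mm10) and sequences from RefSeq (GRCm38.p6). Counts of reads for members with several exons are estimates from transcript length.

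The genes named were the 10 members, up to 4 genes per other list with the highest mean NRPKM, all genes of the lipid uptake and ligand lists, and the 10 genes most like the members. The members, the lists and the tests were chosen with earlier results of these data known. Alternatives were a pseudocount of 1, no filter, a filter over the 6 libraries compared, median-of-ratios and quantile scaling, a fit of all 12 libraries, a replicate block, and each library left out. Same-numbered proliferative and resting libraries deviated together (r = 0.281, 0.179 and 0.198). The other pairs of groups had at least 1 r under 0.1, but *aadd* and resting replicate 2, of different genotypes, had 0.280. The check thus cannot show whether same numbers pair the samples.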

Additional observations from a re-analysis of the deposited data

How the results depend on the processing

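Over the log2 differences of the 10 members in both hypertrophic comparisons, 244 alternatives gave 0 reversals of direction, 54 losses of a call, of which 43 came from leaving out a library, and 11 gains. In the other comparisons, where no member was called, some differences changed sign over the alternatives, such as *Cdh5* in proliferative against resting (-0.77 to 0.83) and *Egfl7* in *aadd* against resting (-0.89 to 0.45). Of 10 counts of members past the criteria, 49 of 55 alternatives other than leaving out a library equalled the main count or stayed within 1.5 times it. These include proliferative and *aadd* against resting, where the main count was 0 and an equal count was 0 again. They also include the counts with the filter, which rest on members that entered through libraries in which they were high. With the filter, hypertrophic against proliferative gave 4 members past the criteria, 7 without the filter and 2 with the filter over the 6 libraries compared. Hypertrophic against resting gave 3, and 6 without the filter. The test over 4 groups gave 3, and 8 without the filter. *aadd* against resting gave 0, and 1 with the replicate block, also without the filter. In proliferative against resting the replicate block left 0 members past the criteria. In hypertrophic against resting the block without the filter gave 8 of 10 in place of 6, and in hypertrophic against proliferative 5 of 10 in place of 7. Leaving out 1 library at a time gave 2 to 4 members with the filter and 2 to 10 without it in both hypertrophic comparisons, 1 to 4 and 2 to 10 over the 4 groups, 0 to 1 and 0 to 1 in proliferative against resting, and 0 to 1 and 0 to 0 in *aadd* against resting. With the filter, *Plvap* was the member called without resting replicate 1 and *Gpihbp1* the member called without *aadd* replicate 1. Fits that start without the filter, and the one that drops rows at 0 in the 6 libraries, were chosen after seeing the data, as were the bounds without replicate 2 or 3. The filter over the 6 libraries compared left no member to count in proliferative or *aadd* against resting. The cause of these shifts was not tested. At most 3 reads per proliferative library limited *Cldn5*, *Plvap* and *Gpihbp1*.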
